A study of Mus musculus with 13 samples.

Results

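Of 13 mouse aortas, 8 were compared by how much Col2a1 RNA they held, and the genes that went with it were described. Col2a1 (ENSMUSG00000022483) encodes the single chain of type II collagen, the main collagen of cartilage. The members were chosen by the measured Col2a1 level itself: its count scaled to the column total (CPM) ranked the 13 libraries, and the 4 highest were set against the 4 lowest, whatever the treatment. Col2a1 was therefore left out of every test, and its values below are a description. No mouse was assigned to these sets, so a p-value says how a gene went with the Col2a1 rank and nothing about the drugs.

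All 13 libraries came from whole aorta of ApoE-/- mice, which lack apolipoprotein E and develop atherosclerosis, and every mouse was fed a Western diet (WD) from the age of 6 weeks, for 16 weeks. The diet was given alone (WD, 5 libraries), with auranofin at 3 mg/kg/day (3), with atorvastatin at 10 mg/kg/day (3), or with both drugs (combination, 2). Auranofin, a gold compound, blocks thioredoxin reductase. Atorvastatin blocks HMG-CoA reductase, the enzyme that controls cholesterol synthesis. No aorta from a mouse with a working Apoe gene or on another diet was among them. The labels did not tie a library to a named mouse, so p-values measure the spread between these samples only.

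Cartilage matrix is a network of collagen II fibrils with collagens IX and XI, filled with the proteoglycan aggrecan and made by chondrocytes under the transcription factor SOX9. As chondrocytes mature and enlarge they switch to collagen X and to genes of mineralization. In atherosclerotic vessels, smooth muscle cells can take on a chondrocyte-like program, and calcified plaque can hold such cells. Cartilage also lies close to the aorta, in the walls of the airways.

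Col2a1 ran in steps from 786 CPM to 0, with 5 of the 13 aortas under 1 CPM. It stood at 786 CPM in atorvastatin 2, 446 in WD 1, 257 in atorvastatin 1 and 253.9 in combination 2, the 4 aortas with most. It stood at 0.538 CPM in auranofin 2, 0.268 in WD 2, 0.251 in WD 3 and 0 in WD 5, the 4 with least, where 3 counts would have been 0.115 to 0.126 CPM. The 5 aortas between them held 115.9 CPM (auranofin 3), 87.8 (WD 4), 48.4 (combination 1), 16.7 (auranofin 1) and 0.547 (atorvastatin 3). The upper edge of the choice thus lay between 253.9 and 115.9 CPM. The lower edge was a near tie, since atorvastatin 3 and auranofin 2 each had 13 counts.

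**Figure D1:**
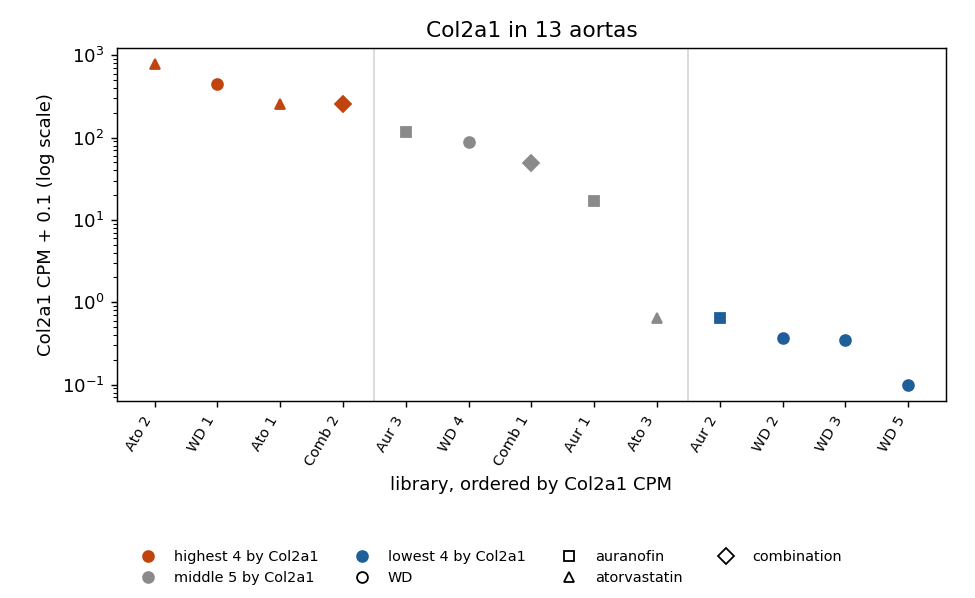
Col2a1 CPM plus 0.1 (log scale) in each of the 13 libraries, ordered by level, with colour for the set and marker shape for the treatment (Aur auranofin, Ato atorvastatin, Comb combination). Levels run from 0 to 786 CPM, and 5 libraries lie under 1 CPM.

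The sets mixed treatments unequally. Among the 4 aortas with most Col2a1 were 1 WD, 2 atorvastatin and 1 combination, so 3 had received atorvastatin. The 4 with least were 3 WD and 1 auranofin, and 0 of them had received atorvastatin. The sets also differed in library measures: mitochondrial genes took 9.36% to 19.1% of counts in the aortas with most Col2a1 and 19.4% to 38.8% in those with least. Total counts were 19703683 to 22805979 against 23890678 to 26079566, and the TMM scaling factors 1.08 to 1.23 against 0.629 to 1.03. None of these 3 measures overlapped between the sets (exact permutation test over the 8 libraries, two-sided p 0.0286 for each, also after Benjamini-Hochberg adjustment over the 3, and the smallest this design allows). Total counts were the divisor of the CPM that chose the sets, so their difference is not independent of that choice and is a description. Over all 13 libraries, log2 Col2a1 had a Pearson r of -0.68 (Spearman rho -0.71) with the mitochondrial share and 0.77 (0.70) with the scaling factor, given as a description since they share depth and scaling. Smooth muscle RNA was present in all 8 libraries. Myh11, the smooth muscle myosin, stood at 2700.1 to 5545 CPM in the set with most and 744 to 4406 in the set with least. Acta2, smooth muscle actin, stood at 6314 to 12106 and 4737 to 22495.

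In all, 10 genes were higher in the aortas with most Col2a1 and none was lower, among 18054 genes tested with edgeR's quasi-likelihood test at a Benjamini-Hochberg adjusted p of 0.05 (0.0554% of genes called in all, 0.0554% higher and 0% lower). They were Ibsp, Clec3a, Chad, Col10a1, Dgkk, Chil1, Col11a2, Cnmd, Col11a1 and Col9a2. Of these, 4 encode collagen chains found with collagen II, and 8 belong to the cartilage lists described below. In all 10 the 2 sets did not overlap, as in 4.23% of all genes on the higher side and 3.09% on the lower. In all 10 the 4 middle aortas with more Col2a1 also lay above atorvastatin 3, the middle aorta with almost none, as in 14.8% of all genes. At an unadjusted p under 0.05, 1564 genes were higher (8.66%) and 2472 lower (13.7%). By limma voom 0 genes were lower at an adjusted p of 0.05, and by DESeq2 952 were.

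The number of genes called rested on the libraries and the model. It was 5 without WD 1, 1 without WD 5, 5 without auranofin 2, 16 without WD 2 and 2478 without WD 3, and 0 when the mitochondrial share or the replicate number was a term of the model. With a term for each drug 3 genes were called, 1 of the 10 among them (Ibsp). With atorvastatin 3 in place of auranofin 2, its near tie, 29 were called, with 9 of the 10. With auranofin 2 and WD 2, the libraries of lowest scaling factor, left out, 296 were called, all 10 included. Over 26 other settings none of the 10 changed sign. These genes were picked from the same libraries and did not overlap between the sets. A change of sign was therefore hardly possible, and its absence is no separate support. Ibsp lay between 5.08 and 6.57 (log2), Chad between 5.85 and 7.51 and Col10a1 between 6.04 and 7.22. Other sizes moved more: Clec3a lay between 5.47 and 10.8, Chil1 between 4.02 and 7.45, Col11a1 between 4.39 and 7.75 and Dgkk between 2.39 and 4.57. Whether the mitochondrial share has a part in these results was not tested beyond that term, and it cannot be told apart from the Col2a1 rank across sets that do not overlap in it.

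Genome sequence just before the start of 4 of these genes is shown because they rose together with Col2a1: Ibsp, Chad, Col10a1 and Col11a2 were the called genes with the letters of a TATA box (TATAAA, either strand), which is in capitals. Each run is the 250 bases before the RefSeq gene start, 5′ to 3′ along the gene, from build GRCm38.p6 (the counts were made on another build): chr5:104299037-104299286 for Ibsp, chr11:94564797-94565046 for Chad, chr10:34389731-34389980 for Col10a1 and chr17:34038888-34039137 for Col11a2, all on the + strand.
Ibsp: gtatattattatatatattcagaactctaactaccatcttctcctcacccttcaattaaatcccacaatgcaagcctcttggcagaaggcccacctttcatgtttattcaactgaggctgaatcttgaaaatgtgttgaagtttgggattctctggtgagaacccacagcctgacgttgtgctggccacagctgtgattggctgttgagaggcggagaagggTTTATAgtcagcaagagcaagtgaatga
Chad: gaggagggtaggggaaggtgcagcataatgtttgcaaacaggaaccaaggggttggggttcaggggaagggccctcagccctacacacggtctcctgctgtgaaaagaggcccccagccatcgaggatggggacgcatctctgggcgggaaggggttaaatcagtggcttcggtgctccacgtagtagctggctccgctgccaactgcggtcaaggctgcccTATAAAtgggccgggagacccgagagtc
Col10a1: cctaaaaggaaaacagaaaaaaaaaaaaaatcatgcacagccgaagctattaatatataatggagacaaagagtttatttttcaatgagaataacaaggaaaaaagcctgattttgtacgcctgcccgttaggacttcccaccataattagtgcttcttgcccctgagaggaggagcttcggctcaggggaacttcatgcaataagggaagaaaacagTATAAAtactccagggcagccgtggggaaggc
Col11a2: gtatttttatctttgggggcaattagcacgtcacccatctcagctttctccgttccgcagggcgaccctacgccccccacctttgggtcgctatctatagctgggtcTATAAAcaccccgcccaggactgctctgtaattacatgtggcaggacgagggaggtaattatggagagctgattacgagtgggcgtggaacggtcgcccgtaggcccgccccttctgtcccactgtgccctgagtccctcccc
The box began 28 bases before the start in Ibsp and Chad, 32 in Col10a1 and 143 in Col11a2. Of the 10 called genes 9 had a window in the table (not Clec3a), and 4 of these 9 held the box, against 7.12% of 12182 tested genes with a window and 13% of all 27025. The RUNX core TGTGGT was in 0 of the 9 (11% of tested genes with a window), the SOX core ACAAAG in 1 (Col10a1; 12.1%) and ACAATG in 1 (Ibsp; 6.22%), each searched on both strands. The motif and the genes shown were chosen after the matches were seen. These are matches of letters in a short window and say nothing of binding.

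The collagens that accompany collagen II went with it. Values from here on are CPM at the TMM-scaled library size, each set in the order given above for Col2a1. Col11a2, a chain of collagen XI, stood at 44.1, 28.3, 18.4 and 16.9 CPM in the aortas with most Col2a1 and at 1.91, 0.60, 1.96 and 2.18 in those with least, a log2 fold change of 4.01 (SE 0.46, adjusted p 0.0137). Its partner Col11a1 stood at 20.9, 9.55, 5.74 and 8.64 against 0.132, 0, 0.449 and 0.304 CPM, a change of 5.53 (SE 0.71, adjusted p 0.0282). Every aorta of the upper set was above every aorta of the lower for both. Col9a2, a chain of collagen IX, which decorates the collagen II fibril, stood at 4.21, 5.44, 0.869 and 1.94 CPM against 0, 0.0600, 0.0408 and 0 (adjusted p 0.0385). It had 327 counts against 2, a ratio of 122 with an exact 95% counting interval of 33.5 to 1011. The other chains of collagen IX did not pass: Col9a1 had a log2 fold change of 3.77 (SE 0.64, adjusted p 0.0972) and Col9a3, named after its values were seen, 4.11 (adjusted p 0.0552), both without overlap.

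Among the noncollagenous proteins of cartilage, Chad (chondroadherin, a leucine-rich matrix protein that binds chondrocytes; ENSMUSG00000039084) had 174.7, 107.7, 104.1 and 48.1 CPM in the upper set. It had 3.09, 0.660, 0.653 and 0.963 CPM in the lower set, and the sets were apart by a log2 fold change of 6.37 (SE 0.64, adjusted p 0.00892). Chad also had the pattern most like Col2a1 over all 13 libraries, with a Pearson r of 0.95. Cnmd (chondromodulin, an inhibitor of vessel growth in cartilage) had 4.70, 6.44, 3.14 and 3.92 against 0.198, 0, 0.0817 and 0 CPM, a change of 5.98 (SE 0.72, adjusted p 0.0188). Clec3a, a C-type lectin of cartilage, had 14.4, 4.43, 9.07 and 3.78 against 0.0658, 0, 0 and 0 CPM (adjusted p 0.00892). That was 823 counts against 1, a ratio of 614 with a counting interval of 109.9 to 24281. Both genes were close to absent from all 4 aortas of the lower set.

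Aggrecan was less separated. Acan, its gene, stood at 83.1, 64.9, 72.5 and 48.5 CPM against 4.61, 6.54, 24.5 and 14.8, without overlap but with an adjusted p of 0.160 (log2 fold change 2.41, SE 0.48). Comp, a matrix protein also abundant in tendon, had 61.5 to 184 against 27.2 to 55.0 CPM and an adjusted p of 0.165, and Hapln1, the link protein of aggrecan, had 10.9 to 23.6 against 2.04 to 8.13 CPM and 0.165. Snorc, a chondrocyte membrane proteoglycan, had 0.661 to 3.36 against 0 to 0.840 CPM and overlapped. Ucma, a mineral-regulating protein of cartilage, had 60 counts against 0 (named after its values were seen). Matn1, matrilin 1, had too few counts for the test and was at most 0.190 CPM in any of the 8 libraries.

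Over the whole cartilage matrix list 23 of 25 genes were tested, 6 passed and all 6 were higher (background 0.0554%). At an unadjusted p under 0.05, 16 were higher (background 8.66%) and 1 lower (13.7%), Cytl1, a secreted cytokine-like protein, at -1.32. The sets did not overlap on the higher side for 14 of the 23 (4.23%). The list's median log2 fold change was 2.13, beside 0.02 for all genes tested. Its summed level did overlap, at 848 to 1502 CPM in the upper set and 930 to 1297 in the lower. In 12 of the 23 the 4 middle aortas with more Col2a1 lay above atorvastatin 3 (14.8%). The genes of this list were taken as markers of the tissue that Col2a1 marks, so their direction is a description of how they go together. In whole tissue, fewer cells of a type and less RNA per cell cannot be told apart.

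Genes of late chondrocytes and mineralization held the smallest p-value of all. Ibsp (bone sialoprotein, a matrix protein of mineralizing cartilage and bone; ENSMUSG00000029306) stood at 244, 219.6, 125 and 87.2 CPM in the upper set and 1.25, 2.22, 2.41 and 2.53 in the lower. Its log2 fold change was 6.32 (SE 0.44, adjusted p 0.00106), and its 5 middle values of 37.5, 32.9, 14.2, 10.3 and 3.02 CPM followed the order of Col2a1. Col10a1, collagen X of hypertrophic chondrocytes (ENSMUSG00000039462), stood at 100.3, 44.2, 20.3 and 18.6 against 0.329, 0.540, 0.572 and 0.203 CPM, a change of 6.77 (SE 0.69, adjusted p 0.00892). Unlike Ibsp, Col10a1 was under 5 CPM in all 5 middle aortas, at 2.12, 4.74, 0.776, 0.625 and 0.378.

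Other members of that list were less apart or overlapped. Panx3, a channel of hypertrophic chondrocytes and osteoblasts, had 215 counts against 1, a ratio of 160.4 (counting interval 28.5 to 6365) and an adjusted p of 0.0972. Sp7 (osterix, an osteoblast transcription factor) had 0.897 to 2.58 against 0.329 to 0.613 CPM and Alpl (alkaline phosphatase) 19.3 to 41.7 against 14.8 to 17.8, both without overlap and both with an adjusted p of 0.165. Runx2, a transcription factor of hypertrophy and bone, had 4.30 to 6.53 against 1.17 to 4.67 CPM and overlapped (log2 fold change 1.12, SE 0.43, adjusted p 0.186). Bglap, osteocalcin, was at most 0.569 CPM in the 8 libraries. Spp1 (osteopontin) ran from 923 to 2568 in the upper set and from 131 to 2785 in the lower, and Mgp, matrix Gla protein, an inhibitor of calcification, from 2487 to 4278 and from 2571 to 11652, so neither separated the sets. Of 22 listed genes 20 were tested, 2 passed (background 0.0554%), 9 were higher at an unadjusted p under 0.05 (8.66%) and 0 lower, and the median was 0.72.

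No transcription factor of chondrocytes passed. Sox9 stood at 16.4, 13.6, 9.79 and 8.02 CPM against 3.29, 2.52, 4.90 and 5.37, without overlap, with a log2 fold change of 1.57 (SE 0.32, adjusted p 0.165). Its partners Sox6 and Sox5 had changes of 0.67 (SE 0.26, adjusted p 0.191) and 0.29 (SE 0.26, adjusted p 0.486) and overlapped. Trps1, a repressor in the growth plate, had 0.68 (SE 0.21, adjusted p 0.165), Arid5b, a partner of SOX9, 1.32 (adjusted p 0.166) and Shox2, a limb and heart homeobox gene, 3.16 (adjusted p 0.181). Of the 17 of 20 listed regulators that were tested none passed, 5 were higher at an unadjusted p under 0.05 (8.66%) and 2 lower (13.7%), Pax1 at -0.71 and Pthlh at -0.99 (named after their values were seen). The median was 0.20.

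Of the 10 genes, 2 lay outside the cartilage lists. Chil1 (chitinase-like protein 1, secreted by chondrocytes and by macrophages) had 72.7, 43.2, 21.3 and 26.8 CPM in the upper set and 1.18, 0.900, 0.123 and 0.355 in the lower, a log2 fold change of 6.06 (SE 0.67, adjusted p 0.0113). Its highest value of all, 84.6 CPM, was in combination 1, the aorta of Col2a1 rank 7 (41.0 CPM at the same scaling). Dgkk, a diacylglycerol kinase, had 1.33, 1.79, 2.30 and 1.51 against 0.0658, 0.12, 0.0408 and 0.101 CPM, a change of 4.34 (SE 0.48, adjusted p 0.0113). The 4 middle aortas with more Col2a1 had 0.930 to 1.39 CPM of Dgkk, above every aorta of the lower set.

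**Figure D2:**
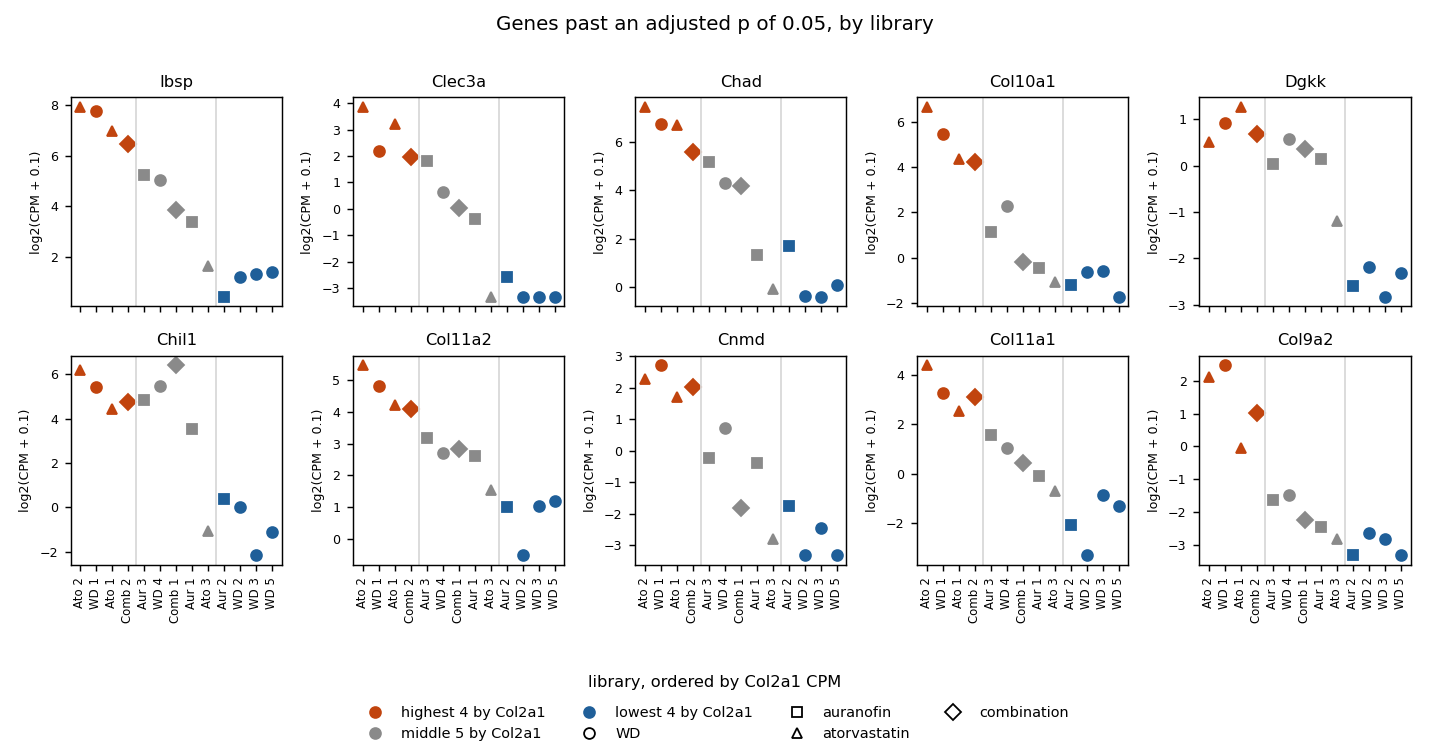
The 10 genes past an adjusted p of 0.05, each as log2(CPM + 0.1) in the 13 libraries ordered by Col2a1 (colour for the set, marker shape for the treatment). In every panel the upper 4 lie above the lower 4, and combination 1 holds the highest Chil1 value, 84.6 CPM.

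Over all 13 libraries, the 10 genes whose log2 level was most like that of Col2a1 were Chad (r 0.95), Slc41a2 (0.95), Ibsp (0.95), Chil1 (0.94), Clcn7 (0.94), Hand2os1 (0.94), Tbx20 (0.94), C4a (0.93), Col9a3 (0.93) and Shc2 (0.92). Clcn7, a chloride-proton exchanger of lysosomes, stood at 49.0 to 54.1 CPM in the upper set and 29.2 to 37.6 in the lower (log2 fold change 0.63, SE 0.17, adjusted p 0.165). Slc41a2, a magnesium transporter, stood at 22.6 to 24.8 against 14.2 to 15.3 CPM (0.70, SE 0.16, adjusted p 0.165). Both pairs of ranges were narrow and did not overlap. These r values describe 13 libraries, 8 of which were chosen by Col2a1, and scaling is common to all genes. The gene most opposed to it was Hoxb6, at -0.93.

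Outside cartilage, no gene of the vessel wall lists passed other than Ibsp. Fibrous matrix genes, which build the collagen and elastic fibres of the vessel wall, had 0 of 25 called (0.0554%), 10 higher at an unadjusted p under 0.05 (8.66%), 0 lower and a median of 0.68. With the mitochondrial share as a term their median was -0.12. Ltbp2, a microfibril protein, had 150.1 to 244 against 39.8 to 92.8 CPM (log2 fold change 1.69, SE 0.31, adjusted p 0.122), and Lox, which crosslinks collagen and elastin, 263 to 351 against 109 to 191 (1.13, SE 0.26, adjusted p 0.165). Xylt1 and Chst11, enzymes of chondroitin sulphate chains, had changes of 1.46 (SE 0.29, adjusted p 0.160) and 1.42 (SE 0.34, adjusted p 0.165). Adamts4, a protease that cuts aggrecan, had 2.69 to 6.72 against 0.101 to 1.25 CPM (2.61, SE 0.59, adjusted p 0.165). These 5 did not overlap between the sets. That held on the higher side for 6 of 25 fibrous matrix genes and 3 of 17 genes of proteoglycan synthesis. It also held for 4 of 15 matrix proteases and inhibitors, beside 4.23% of all genes. On the lower side 0 genes of each list were free of overlap (3.09% of all genes).

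The modulated smooth muscle list, genes of smooth muscle cells that lose their contractile state, had 1 of 12 called (0.0554%; Ibsp, also a cartilage gene) and a median of 0.53. At an unadjusted p under 0.05, 6 of the 12 were higher (8.66%) and 1 lower (13.7%), and at any p 6 had fitted values below 0. The list's next member, Tnfrsf11b (osteoprotegerin, a decoy receptor that restrains osteoclasts), had 75.4 to 123 against 19.001 to 50.05 CPM (log2 fold change 1.72, SE 0.33, adjusted p 0.159). Of the 8 tested genes of tendon and perichondrium 1 was higher at an unadjusted p under 0.05 (8.66%), Tnn (tenascin-N), at 3.97 to 7.44 against 0.658 to 1.47 CPM (2.30, SE 0.34, adjusted p 0.0584). Contractile smooth muscle genes had 0 of 15 called (0.0554%) and a median of 0.19, which was -1.11 with the mitochondrial share as a term.

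Macrophage genes did not separate the sets. Cd68 ran from 69.1 to 209 CPM in the upper set and from 18.5 to 350.0 in the lower, with a log2 fold change of -0.05 (SE 0.81, adjusted p 0.975), and Trem2, a receptor of lipid-laden macrophages, from 27.9 to 78.2 and from 5.68 to 118. The macrophage list had 0 of 15 called (0.0554%), 1 higher at an unadjusted p under 0.05 (8.66%; Mertk, a receptor for uptake of dying cells, 0.69) and a median of -0.08. With auranofin 2 and WD 2 left out that median was 1.77, with 5 members called. Within the lower set Cd68 stood at 192 and 350.0 CPM in auranofin 2 and WD 2 and at 18.5 and 25.4 in WD 3 and WD 5. With the macrophage score as a term, chosen after the data were seen, 3568 genes were called, 1784 higher and 1784 lower, all 10 among them. The part of macrophage content in the 10 genes was not tested beyond that term.

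**Figure D3:**
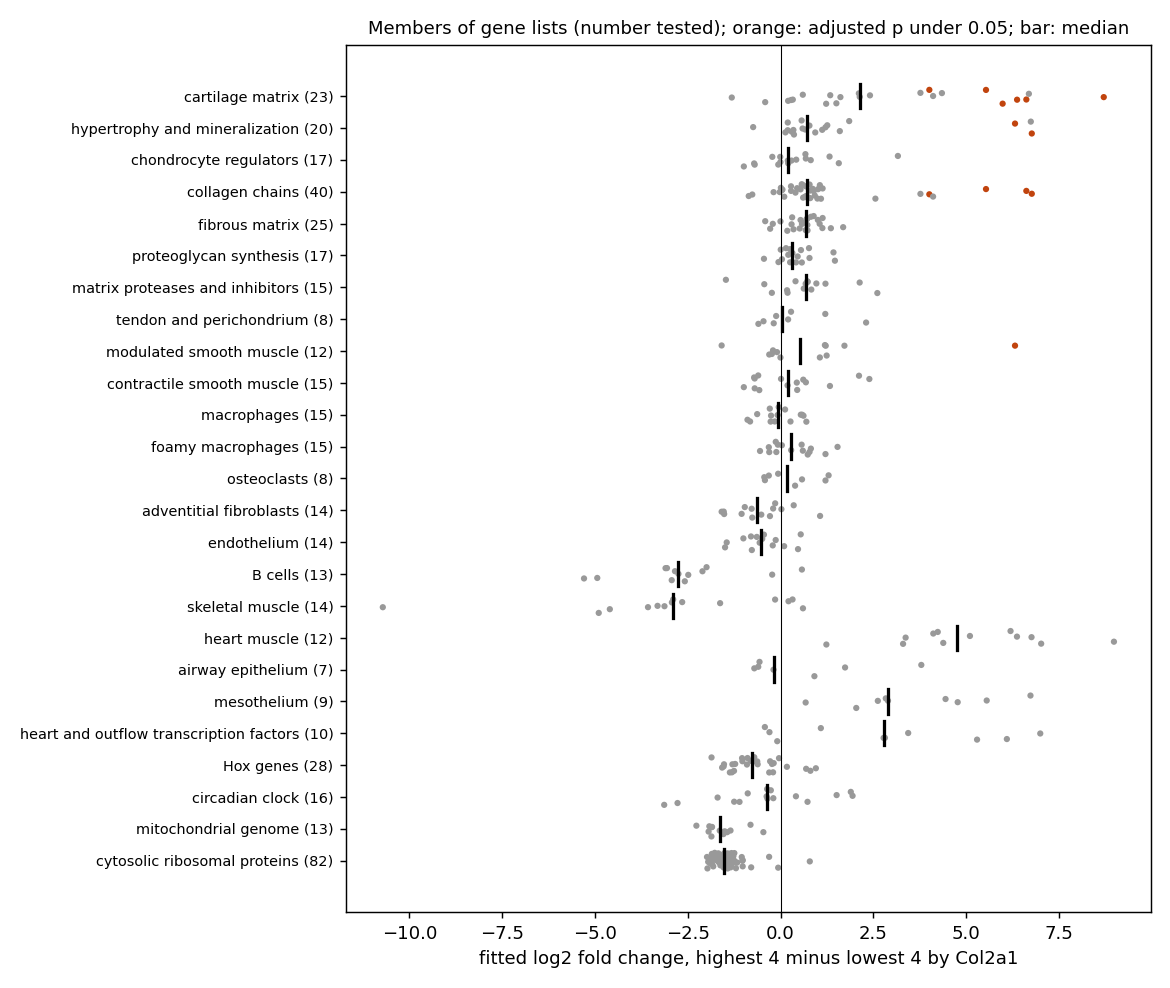
Fitted log2 fold change (aortas with most minus aortas with least Col2a1) of every tested member of 25 gene lists, with orange points for adjusted p under 0.05 and a black bar at each median. Orange points lie in the cartilage matrix, hypertrophy, collagen and modulated smooth muscle lists, and the heart muscle list has the highest median, 4.74, with no orange point.

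Markers of neighbouring tissue were present unevenly. Heart muscle genes had 0 of 12 called, 12 higher at an unadjusted p under 0.05 (8.66%) and a median of 4.74, yet 0 of the 12 were free of overlap. By limma voom 0 of the 12 were higher at that p and the median was 1.21, and with auranofin 2 and WD 2 left out 3 were, with a median of 5.07. Myh6, the myosin heavy chain of heart muscle, stood at 1.63, 96.4, 0.831 and 625 CPM in the upper set and 1.05, 0.300, 0.0817 and 0.101 in the lower. WD 1 and combination 2 thus carried heart muscle RNA, as did WD 4 (161.9 CPM) of the middle aortas, and atorvastatin 2, with the most Col2a1, had almost none. The summed level of the list was 39.5 to 1859 CPM in the upper set and 23.4 to 47.5 in the lower. The part of adjoining heart tissue in the cartilage genes was not tested. Of the 20 listed airway epithelium genes 7 could be tested, 0 passed, 2 were higher at an unadjusted p under 0.05 (8.66%; Bpifb1, a secreted airway protein, at 3.79 with an adjusted p of 0.0552, and Krt8 at 1.74) and 1 lower (13.7%; Krt18, -0.71). Scgb1a1, the main club cell secretion, was at 0.189 to 2.22 against 0.572 to 1.92 CPM, the lung factor Nkx2-1 was at 0 in all 8, and the summed level of the list was 11.7 to 22.7 against 14.4 to 26.5 CPM.

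The next groups were chosen after their values were seen and are given as a description. Transcription factors of the heart and outflow tract had 0 of 10 called, 6 higher at an unadjusted p under 0.05 (8.66%) and a median of 2.79. At any p, 7 of the 10 had fitted values above 0 and 3 below. The summed level of the list overlapped, at 103 to 117 CPM in the upper set and 70.8 to 114 in the lower. Tbx20, a T-box factor of the heart and its outflow, stood at 11.3, 11.5, 10.7 and 15.2 CPM against 1.51, 0.960, 3.39 and 0.963 (log2 fold change 2.81, SE 0.42, adjusted p 0.0584). Hand2, a factor of outflow tract and sympathetic neurons, stood at 6.18, 6.54, 3.82 and 5.10 against 0.658, 1.20, 0.204 and 1.11 (2.78, SE 0.49, adjusted p 0.110). Unlike heart muscle genes, both were high in all 4 aortas of the upper set. Gata4 had 230 counts against 4, and Gata5 had 37 against 0, at least 9.20-fold higher by a floor of 3 counts over the set.

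Genes of mesothelium, the lining of the pericardium and pleura, had 0 of 9 called, 8 higher at an unadjusted p under 0.05 (8.66%) and a median of 2.89. Upk3b, a uroplakin of mesothelial cells, stood at 10.4, 12.7, 1.40 and 9.72 CPM against 0.790, 0.300, 0.163 and 0.355 (log2 fold change 4.44, SE 0.72, adjusted p 0.0809), and at 13.9 in WD 4. Muc16, a mesothelial mucin, had 158 counts against 2, a ratio of 58.9 (counting interval 16.0 to 491), and Bnc1 60 against 0, at least 14.9-fold higher by the same floor. Msln, mesothelin, had 0.605 to 6.33 against 0 to 0.405 CPM. Atorvastatin 1 was the lowest of the upper set for Upk3b, Muc16, Bnc1 and Msln.

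For Hox genes, whose paralogue number follows position along the body from head to tail, most fitted values were below 0. Of 28 tested none passed (0% lower), 17 were lower at an unadjusted p under 0.05 (13.7%) and 0 higher (3 by limma voom), and in 13 the sets did not overlap on the lower side (3.09%). In 18 of the 28 the 4 middle aortas with more Col2a1 lay below atorvastatin 3, as in 15% of all genes. By paralogue number, 2 of 12 genes of groups 1 to 5, 7 of 8 of groups 6 to 8 and 8 of 8 of groups 9 to 13 were lower at that p, with medians of -0.22, -0.80 and -1.33. Hoxa10 stood at 6.18, 6.76, 5.70 and 5.48 CPM against 12.97, 14.5, 10.9 and 10.9 (log2 fold change -1.03, SE 0.20, adjusted p 0.159), and at 11.7 in atorvastatin 3 against 4.62 to 7.46 in the other middle aortas. Hoxd8 had -1.26 (SE 0.25, adjusted p 0.160), Hoxc8 -1.53 (SE 0.34, adjusted p 0.165) and Hoxc9 -1.86 (SE 0.44, adjusted p 0.165). The labels do not say which stretch of aorta each library held, and its part in the Col2a1 level was not tested.

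**Figure D4:**
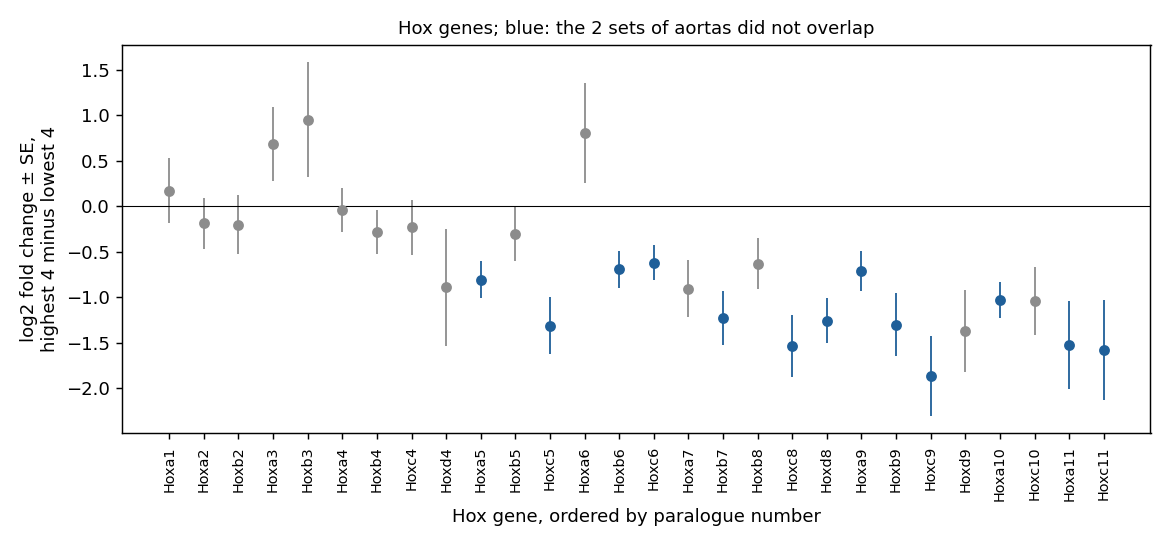
Fitted log2 fold change with its SE (aortas with most minus aortas with least Col2a1) of 28 Hox genes ordered by paralogue number, blue where the 2 sets did not overlap. The medians fall from -0.22 in groups 1 to 5 to -1.33 in groups 9 to 13.

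Genes of the circadian clock lay on both sides, with 0 of 16 called, 4 higher (8.66%) and 6 lower (13.7%) at an unadjusted p under 0.05 (list made after values were seen). Dbp, a clock output factor that peaks in the light phase in mouse tissues, stood at 14.2, 12.7, 21.6 and 27.2 CPM against 70.2, 212, 55.7 and 180.3 (log2 fold change -2.78, SE 0.48, adjusted p 0.0972). Arntl, the activator of opposite phase, stood at 24.5, 25.9, 20.7 and 17.0 against 3.49, 2.52, 16.2 and 1.32 (1.89, SE 0.66, adjusted p 0.172). Per3 and Ciart, repressors of the clock, had -1.70 (SE 0.32, adjusted p 0.143) and -3.14 (SE 0.63, adjusted p 0.164). Atorvastatin 3, with almost no Col2a1, had Dbp at 16.5 and Arntl at 27.8 CPM, within or beyond the upper set, while auranofin 3, combination 1 and auranofin 1, with more Col2a1, had Dbp at 118, 172.7 and 71.2. The hour of tissue collection is not given in the sources used here.

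**Figure D5:**
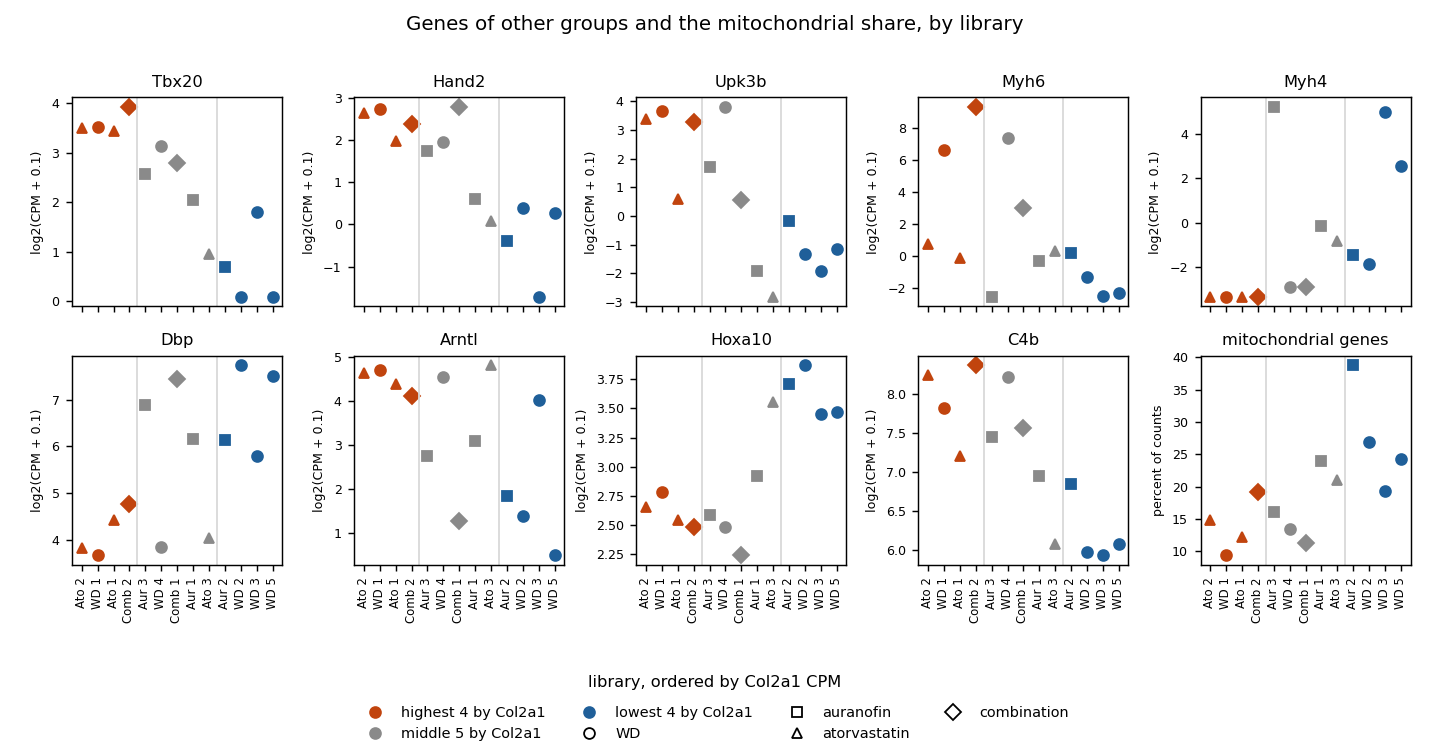
The genes of other groups (9, chosen after their values were seen) as log2(CPM + 0.1), and the percent of counts from mitochondrial genes, in the 13 libraries ordered by Col2a1 (colour for the set, marker shape for the treatment). Tbx20 and Hand2 are high in all 4 upper aortas, and Myh6 only in WD 1 and combination 2 of them, at 96.4 and 625 CPM.

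No gene with a lower level in the upper set passed at 0.05. The 6 with the smallest p-values were C1qtnf3, an adipokine (2.16 to 3.06 against 7.26 to 8.69 CPM, log2 fold change -1.63, SE 0.24, adjusted p 0.0552), Dbp, Inmt, a methyltransferase (-2.07, SE 0.37, adjusted p 0.110), Tmem88 (-1.91, SE 0.35, adjusted p 0.122), Retnla, a secreted protein of alternatively activated macrophages (-2.32, SE 0.43, adjusted p 0.138), and Per3. For C1qtnf3 the middle aorta with almost no Col2a1, atorvastatin 3, had 7.84 CPM and the other middle aortas 4.03 to 6.40. Adventitial fibroblast genes had 0 of 14 called, 7 lower at an unadjusted p under 0.05 (13.7%), 1 higher (8.66%; C3, a complement factor, 1.06) and a median of -0.64. Clec3b (tetranectin) had 38.1 to 74.5 against 94.7 to 202 CPM (-1.52, SE 0.30, adjusted p 0.160), and Serpinf1 155 to 236 against 265 to 504 (-1.05, SE 0.30, adjusted p 0.165), both without overlap.

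The drug groups were then compared for the cartilage genes, since the rule did not use them. By CPM over the column total, Col2a1 ran from 0 to 446 in the 5 WD libraries, 0.538 to 115.9 with auranofin, 0.547 to 786 with atorvastatin and 48.4 to 253.9 with the combination, so all groups overlapped. Against WD its log2 fold change was -1.13 (SE 2.18, adjusted p 0.883) with auranofin, 1.78 (SE 2.04, adjusted p 0.626) with atorvastatin and 0.67 (SE 2.32, adjusted p 0.997) with the combination. Of 61 cartilage genes tested, Col2a1 included, 0 passed in any of the 3 comparisons by edgeR or DESeq2 (0% of 18055 genes passed in each). At an unadjusted p under 0.05 there were 4 of the 61 with auranofin (6.5% of all genes), 5 with atorvastatin (14.7%) and 2 with the combination (1.47%), shares near or below those of all genes for either drug alone. The medians of the 61 were -0.37, 0.40 and -0.04, beside -0.04, -0.01 and -0.01 for all genes. The SE of about 2 log2 units for Col2a1 reflects its wide spread within these groups of 2 to 5 libraries. In the same fit, the SE for auranofin against WD was 0.21 for Sox5 and 2.43 for Panx3.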

How the data were processed

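RNA of 13 whole aortas was measured by non-stranded poly-A sequencing on a DNBseq instrument, per the labels' protocols. The authors deposited whole-number counts per gene; the submitters' processing notes name STAR 2.6.1d, featureCounts of Subread 1.6.3 and build GRCm39. Without strand, antisense and overlapping genes cannot be told apart. The table holds 56953 genes, 1554 of them without a symbol. Totals were 19703683 to 26079566 counts per library.

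Libraries were ranked by Col2a1 count over column total. Genes were filtered with filterByExpr over the 4 treatment groups (18054 left besides Col2a1), scaled by TMM over 13 libraries and fitted with edgeR 4.0.16 (quasi-likelihood, two-sided, Benjamini-Hochberg, threshold 0.05) in R 4.3.3. SE is the log2 fold change over the square root of F. Log2 CPM used a prior count of 2. DESeq2 1.42.0 and limma 3.58.1 (voom, quality weights) were alternatives, beside other filters, scalings, set sizes, rankings, terms and libraries left out. Counting intervals cover counting error only.

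Named genes were up to 12 per direction past the threshold (the 6 of smallest p where fewer than 5 passed), up to 4 per list by p, 28 panel genes and the 10 most like Col2a1, with limits on level and symbol. Members and lists were chosen with earlier results of these data known. Figures used matplotlib 3.10.9.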

Additional observations from a re-analysis of the deposited data

Results flagged for a closer look

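Of 152 checks of panel genes and list scores within the sets of 4 libraries, 4 had a library far from the other 3 by Dixon's criterion, and chance flags about 1 in 20. In the upper set, combination 2 had a fibrous matrix score (mean log2 CPM) of 8.66, below 9.02 to 9.09 in the other libraries, and atorvastatin 1 had a Wnt list score of 3.71, below 3.97 to 4.01. In the lower set, WD 2 had a log2 CPM of -0.55 for Col11a2, below 1.00 to 1.18, and of 13.5 for Mgp, above 11.3 to 11.5.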

How the results depend on the processing

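The count of 10 genes depended strongly on the setting. With median-of-ratios size factors it was 10, with a CPM of at least 1 in 2 libraries 11, and with mitochondrial genes left out 10. It was 48 with no filter, 1244 by DESeq2 (292 higher, 952 lower), 1 by limma voom, 1638 with all 13 libraries in 3 sets, 3 with drug terms, 31 at an adjusted p under 0.1 and 1503 with a gradient of Col2a1 over 13 libraries. Sets of 3, 5 and 6 libraries gave 2, 29 and 53. Ranking by TMM-scaled CPM, or without mitochondrial counts, put atorvastatin 3 in place of auranofin 2 and gave 29. Leaving out 1 library gave 1 (WD 5) to 2478 (WD 3) genes, with 5 without WD 1, 16 without WD 2 and 5 without auranofin 2. Settings chosen after the data were seen gave 29 with atorvastatin 3 in place of auranofin 2, 296 without auranofin 2 and WD 2, 0 with the mitochondrial share as a term, 3568 with the macrophage score as a term, and 61 with the gradient and treatment terms. The causes of these differences were not tested.

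The replicate block gave 0 genes (smallest adjusted p 0.112, with 3 residual degrees of freedom). Libraries of the same number had correlations of -0.31 to 0.43 (median 0.06, 15 pairs). Those of other numbers had -0.49 to 0.51 (median -0.04, 46 pairs). These ranges overlap, so they do not decide whether the numbers mark a pairing. In the treatment comparison the block and DESeq2 each gave 0 cartilage genes.

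Of 2829 values of 109 genes under other settings, 48 changed sign, in 12 genes, none of them among the 10. The log2 fold changes that did follow by setting. With the mitochondrial share term, Sox5 was -0.15, Bglap -0.43, Ucp1 1.35, Cd68 1.05, Myh11 -0.62, Cd79a 0.16 and Igkc 2.49. With drug terms, Sox5 was -0.076, Scgb1a1 0.84 and Cd68 0.65. With the replicate block, Spp1 was -0.24 and Trem2 -0.93. With auranofin 2 and WD 2 left out, Mgp was 0.030, Scgb1a1 0.44, Ckm -0.20, Cd68 2.69 (adjusted p 0.0361 by edgeR) and Myh11 -0.041. With sets of 3, 5 and 6, Scgb1a1 was 0.11, 0.084 and 0.32 and Cd68 0.11, 0.094 and 0.28, and with 3, Ckm was -0.62. With either other ranking, or atorvastatin 3 in place of auranofin 2, Ucp1 was 0.25 and Cd68 0.36. By limma voom Ckm was -1.31 and Cd68 1.17. Without a filter Cd68 was 0.00070, and with the macrophage score term 0.19. Trem2 was -0.014 with median-of-ratios size factors and -0.017 by DESeq2. With 1 library left out, Mgp ran from -0.96 to 0.093, Scgb1a1 from -0.89 to 0.15, Ucp1 from -1.75 to 0.34, Ckm from -0.29 to 1.64, Cd68 from -0.42 to 0.85 and Trem2 from -0.34 to 0.91.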

Other observations

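No lymphocyte gene passed, and auranofin 2 held the highest B cell values of the lower set. B cell genes had 0 of 13 called, 10 lower at an unadjusted p under 0.05 (13.7% of all genes) and a median log2 fold change of -2.75, which was -0.90 without auranofin 2 and WD 2. Igkc, the kappa light chain, ran from 2.61 to 8.58 CPM in the upper set and from 6.00 to 706 (auranofin 2) in the lower, and Cd79a, a chain of the B cell receptor, from 0.608 to 1.06 and from 1.18 to 22.0 (auranofin 2). With the mitochondrial share as a term the B cell median was 1.17. Thymocyte genes had 5 of 5 lower at that p (13.7%), with Cd8b1 at 0.283 to 0.608 against 0.659 to 4.01 CPM. Only 1 of the 5 was free of overlap on the lower side (3.09% of all genes). Their mean log2 CPM in WD 5 of the lower set, -1.92, lay within the upper set's -2.04 to -1.87. It was highest in auranofin 1, a middle aorta, at 1.91.

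Skeletal muscle genes had 0 of 14 called, 10 lower at an unadjusted p under 0.05 (13.7%) and a median of -2.91. At any p, 3 of the 14 had fitted values above 0, Ckm among them at 0.60. The summed level of the list was 226 CPM in WD 3 and 127 in WD 5. It was 27.6 CPM in auranofin 2 and 42.2 in WD 2, against 36.9 to 70.3 in the upper set. Myh4, the myosin of fast fibres, had 0 counts in the upper set and 888 in the lower, where WD 3 had 31.3 CPM, and 36.8 CPM in auranofin 3 of the middle aortas. Tnni2 and Mylpf of fast muscle had -3.32 (SE 0.74, adjusted p 0.165) and -2.65 (SE 0.64, adjusted p 0.165).

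Ribosomal protein and mitochondrial genes lay mostly below 0. Of 82 cytosolic ribosomal protein genes 78 were lower at an unadjusted p under 0.05 (13.7% of all genes), with a median of -1.53, and of 13 mitochondrially encoded genes 11 were, with a median of -1.64. None passed at an adjusted p of 0.05, and 0 of the 82 were lower at the unadjusted p with the mitochondrial share or the drugs as terms, where their medians were -1.68 and -1.08. Only 1 of the 82 was free of overlap on the lower side, and 8 of the 13 were (3.09% of all genes). The summed ribosomal level was 11682 to 20555 CPM in the upper set. In the lower set it ran from 15575 in WD 3 to 78981 in WD 2. Complement genes, listed after values were seen, had 6 of 15 higher (8.66% of all genes) and 1 lower (13.7%; C2, -0.94) at that p. C4b stood at 147 to 331 against 61.1 to 115 CPM (1.72, SE 0.33, adjusted p 0.159), and its neighbour and near copy C4a had 2.83 (SE 0.46, adjusted p 0.0809), so reads could be split between them.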
